A study of Mus musculus with 8 samples.

Results

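Long noncoding RNAs are transcripts that are not read as proteins, and many of them are spliced and processed much like messenger RNAs. Some build nuclear bodies: Neat1 is the scaffold around which paraspeckles assemble, and Malat1 collects in nuclear speckles, the stores of splicing factors. Others carry small nucleolar RNAs (snoRNAs, guides for the chemical modification of ribosomal RNA) in their introns, as Gas5, Snhg1 and Snhg11 do. Meg3 is expressed from the maternal copy of the imprinted Dlk1-Meg3 region, and Miat and Rmst are best known from neurons and from neural progenitors.

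These 8 genes, Malat1, Neat1, Meg3, Miat, Gas5, Snhg1, Snhg11 and Rmst, were chosen by name. All 8 were present among the 23427 entries of the expression table, and their symbols were matched exactly. Of the 8, 7 passed the filter used for testing, which asked for an FPKM (fragments per length of transcript and per mapped total) of at least 1 in at least 2 libraries. Rmst did not pass, and Snhg11 passed only through replicate 1 of Day 0 and of Day 1.

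The samples were mouse primary oligodendrocyte precursor cells (OPCs), wild type (WT), of strain C57BL/6J. By the methods of the study they were isolated by immunopanning for PDGFRα out of cortical tissue of 3 mouse pups aged 7 days, kept dividing with PDGF-AA, and then differentiated by withdrawal of that factor and addition of the thyroid hormone T3. Libraries were made on Day 0 (before differentiation) and on Day 1, Day 2 and Day 3 of differentiation, with 2 replicates a day and 8 libraries in all. No treated and untreated arms exist at a given day, so the time in culture, the lost growth factor and the added T3 cannot be told apart. The labels give DMEM with serum as the culture medium, whereas the methods describe a defined medium.

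The libraries held about 958000 to 1534000 counted fragments each, read back from the steps of the FPKM values, and replicate 2 of Day 3 was the shallowest. All 12 listed oligodendrocyte genes rose from Day 0 to Day 3 (median log2 change of 4.68), Mbp from a mean of 73.7 to 10349 FPKM, and 7 of 8 precursor genes fell, Pdgfra from 443 to 17.9 FPKM. Of the 8 microglial genes, 7 lay below the filter, as did 8 of 10 endothelial and mural genes. Astrocyte genes differed by replicate number: their summed level was 136 to 175 FPKM in the replicate 1 libraries and 429 to 966 FPKM in the replicate 2 libraries, with Gfap at 14.7 to 45.5 and at 154 to 603 FPKM, respectively, and Aqp4 at 3.97 and 84.8 FPKM in replicates 1 and 2 of Day 3. Among neuron markers, Gad1, Gad2, Slc17a6 and Slc32a1 were at 0 in every library, Snap25 was at 0 to 8.46 FPKM, and Tubb3 rose from a mean of 40.5 to 172 FPKM. Of the 8 neuron markers tested, 4 fell from Day 0 to Day 3, Elavl4 (-2.30), Syp (-1.74), Nefm (-1.74) and Nefl. In such bulk libraries, fewer cells of a type and less RNA per cell cannot be told apart.

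The RNA was selected by its poly(A) tail, which bears on this class of genes because their 3′ ends differ. The stretches below are shown since they set apart the ends of both nuclear body RNAs from that of the polyadenylated short form of Neat1. They come from the annotated transcripts of GENCODE M21 (build GRCm38), 5′ to 3′ and written with T for U. Capitals mark, in turn, a U-rich stretch, an A-rich stretch or the polyadenylation signal. By background knowledge, both kinds of stretch pair into a triple helix that protects a 3′ end cut by RNase P and lacking a poly(A) tail.
Malat1, longest transcript, U-rich stretch, chr19:5796008-5796037, minus strand: ttttctcaggTTTTGCTTTTtggcctttcc
Malat1, longest transcript, A-rich stretch, chr19:5795982-5796011, minus strand: ttccctagctttAAAAAAAAAAAAGCAAAA
Neat1, long form, U-rich stretch, chr19:5824741-5824770, minus strand: cgcgctcaggTTTTGCTTTTcacctttgtc
Neat1, long form, A-rich end, chr19:5824708-5824737, minus strand: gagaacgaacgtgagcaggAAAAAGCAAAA
Neat1, short form, last 30 bases, chr19:5842307-5842336, minus strand: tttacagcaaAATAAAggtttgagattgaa
The stretch TTTTGCTTTT was searched on the transcript strand, and 1528 of 141767 annotated transcripts (1.08%) held it. Followed within 10 to 80 bases by at least 5 A and then GCAAAA, it was held by 2 transcripts, those of Malat1 and Neat1 above. The annotation lets Malat1 run on for 292 bases past its A-rich stretch, whereas the long form of Neat1 ends with it. Both motifs were chosen after the sequences were read, and a match is a description of the letters.

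The genes lie at separate places apart from Malat1 and Neat1, which are neighbours on chromosome 19. Malat1 covers chr19:5795690-5802672 (minus strand), and its longest transcript is a single exon of 6983 nt. Neat1 covers chr19:5824708-5845478 (minus strand), with a long form of 20771 nt in a single exon and a short form that spans 3170 bases from nearly the same start. Meg3 covers chr12:109541001-109571726 and holds 2 annotated microRNA genes, Mir770 and Mir1906-1. Gas5 (chr1:161034422-161038539) holds 10 annotated snoRNA genes and Snhg1 (chr19:8723475-8726443) holds 8. Miat covers chr5:112213228-112229395 and Rmst chr10:92071037-92165170, both on the minus strand, and Snhg11 covers chr2:158375638-158386145. Snhg11 is typed as lncRNA by RefSeq and as protein coding by GENCODE. Antisense neighbours share bases with Miat (13935 bases with Gm26953), Meg3 (3096 with Gm26906), Rmst (2588 with Gm26700), Malat1 (453 with Gm37376) and Gas5 (428 with Zbtb37). The kit marks strand, but whether the counting used it is not given in the sources used here, so reads in those stretches may belong to either gene.

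The FPKM values show what was counted. For 6 of the 8 genes, the values in the libraries were whole multiples of a common step to within 0.0215 of it, the step being the worth of 1 fragment or, for Miat, of 0.5 fragments. The step of Malat1 fits a model of 6982 nt, the length of its longest transcript. That of Neat1 fits 3177 nt, near the span of the short form and far below the long form, so its FPKM is a level per length of the short form. The steps of Gas5 and Snhg11 fit 2554 and 5864 nt, and that of Snhg1 fits 476 nt. The step of Miat fits 8717 nt, and for Meg3 no common step was found. Over the 8 libraries together, Malat1 was carried by 16137 fragments, Neat1 by 5144, Miat by 587.5, Gas5 by 557, Snhg1 by 155 and Snhg11 by 47. A single Snhg1 value therefore rests on 9 to 38 fragments and a single Malat1 value on 1563 to 3270. Intervals given with a value below are exact 95% Poisson intervals and cover counting error only, since the fragments carry no molecular identifiers.

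Malat1 and Neat1 were by far the most abundant of the 8, and the order of the genes by mean FPKM over the 8 libraries was Malat1 (245), Neat1 (172), Snhg1 (32.2), Gas5 (21.9), Meg3 (13.5), Miat (6.69), Snhg11 (0.759) and Rmst (0.0382). Malat1 lay above Neat1 in 7 of 8 libraries, with a ratio from 0.978 to 2.26, and their ranges overlapped. Neat1 lay above Snhg1 in every library and their ranges did not overlap. Snhg1 and Gas5, Gas5 and Meg3, and Meg3 and Miat each kept their order in 8 of 8 libraries while their ranges over the days overlapped. FPKM is per length of the fitted model, 476 nt for Snhg1, 2554 nt for Gas5, 6982 nt for Malat1 and 3177 nt for Neat1. Fragments, which are not a level, were 155 for Snhg1, 557 for Gas5 and 587.5 for Miat. The order by FPKM therefore depends on these lengths, also for Malat1 and Neat1, which had 2008 and 934 fragments in replicate 1 of Day 3. Among the 335 tested genes that RefSeq types as lncRNA, Malat1 and Neat1 ranked 2 and 3 by mean FPKM behind H19 (382), and Snhg1, Gas5 and Meg3 ranked 14, 18 and 28. These are levels in poly(A)-selected RNA, and the share of each RNA captured by that selection was not measured.

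**Figure D1:**
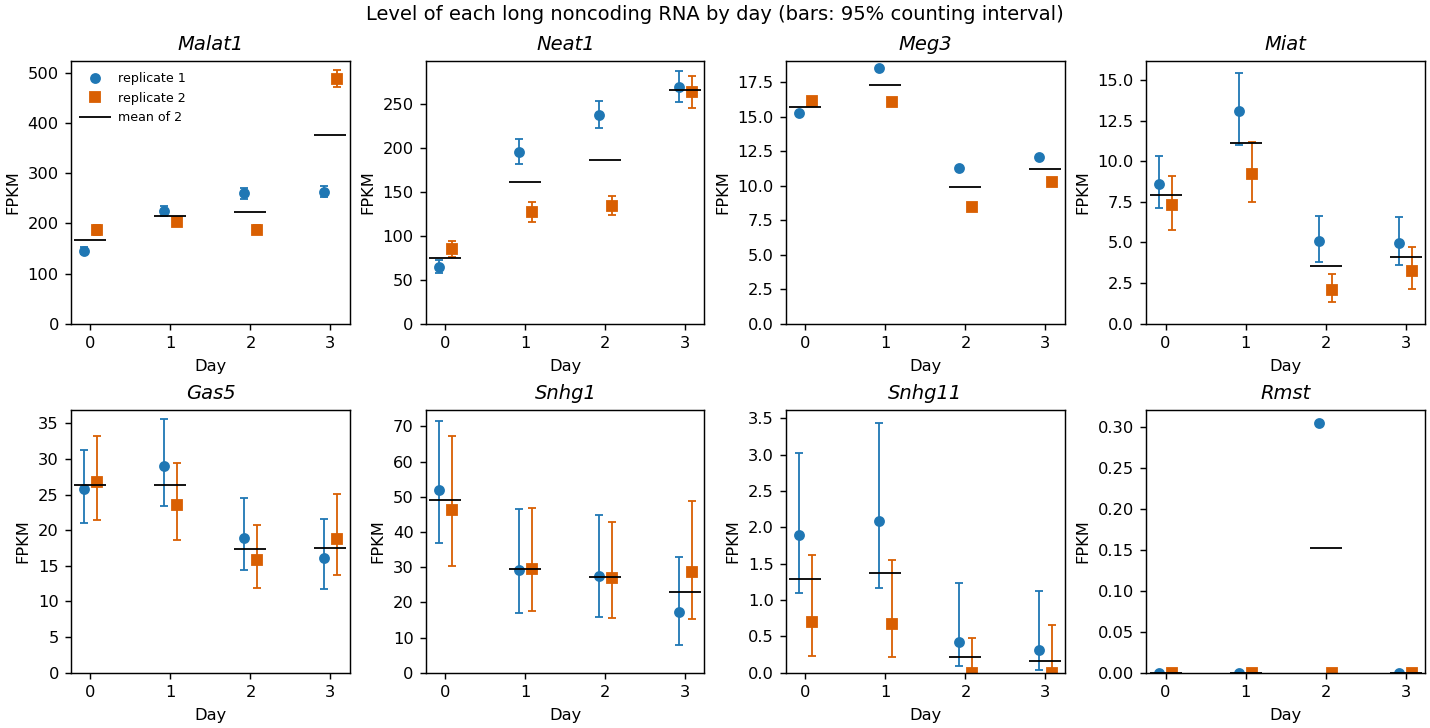
FPKM of each of the 8 genes (vertical axes, linear and each on its own scale) on Day 0 to Day 3 (horizontal axes); circles are replicate 1, squares replicate 2, the black line is their mean, and bars are 95% Poisson counting intervals, which could not be had for Meg3 and are not drawn for Rmst. Neat1 lay higher in both libraries of every later day than on Day 0, whereas Gas5, Snhg1, Meg3 and Miat lay lower on Day 2 and Day 3 than on Day 0.

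Neat1 rose over the course, and on the log2(FPKM + 1) scale it had the largest change from Day 0 to Day 3 of the 7 tested genes. With a pseudocount of 0.1 in place of 1, the low and uncalled Snhg11 had a larger one, -2.63 against 1.84 for Neat1. It stood at 64.6 and 84.9 FPKM at Day 0 (replicate 1, replicate 2), 196 and 127 at Day 1, 237 and 134 at Day 2, and 269.5 and 263 at Day 3. All 6 later libraries were above both Day 0 libraries, and the replicates were closer on Day 0 and Day 3 than on the days between. From Day 0 to Day 3 the log2 change was 1.83 ± 0.29 (SE), a fold of 3.56 on log2(FPKM + 1), with adjusted p = 0.00190 (limma, Benjamini-Hochberg). The first day already gave 1.08 ± 0.29 with adjusted p = 0.0474 (limma), a call that was lost when any library of Day 0, Day 1 or Day 3 was left out (adjusted p up to 0.241). The replicates gave folds of 3.03 and 1.49 for that first step, and 4.17 and 3.10 for Day 3 over Day 0. Its log2 change was at percentile 96.5 of all genes tested.

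Malat1 also rose from Day 0 to Day 3, by less and less evenly. Its level was 146 and 187 FPKM at Day 0, 225 and 204 at Day 1, 259.9 and 187 at Day 2, and 264 and 489 at Day 3. The value of 489 (interval 472 to 506) in replicate 2 of Day 3, the shallowest library, stood above all others. All 6 later libraries were above both Day 0 libraries, though replicate 2 of Day 2 was within 1 FPKM of replicate 2 of Day 0. Day 3 against Day 0 gave a log2 change of 1.12 ± 0.29 (SE), with adjusted p = 0.0163 (limma). Without replicate 2 of Day 3 it was 0.67, with adjusted p = 0.0725, and without replicate 1 of Day 0 it was 0.94, with adjusted p = 0.101. In the test for any difference among the 4 days, Malat1 had adjusted p = 0.0649, against 0.00863 for Neat1 (limma F-test).

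The ratio of Neat1 to Malat1, which does not depend on library scaling, was 0.443 and 0.454 at Day 0, 0.872 and 0.621 at Day 1, 0.913 and 0.717 at Day 2, and 1.02 and 0.538 at Day 3. All 6 later libraries lay above both Day 0 libraries, replicate 1 further than replicate 2 on each of those days. No test was made of this ratio.

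The protein genes of the same nuclear bodies went down. The Malat1 and Neat1 values set beside them come from poly(A)-selected RNA, and those of Neat1 fit a length of 3177 nt, near the span of the short form. The long form shares that span, so the Neat1 values do not tell the short form and the long form apart. Of 20 paraspeckle protein genes, 17 fell from Day 0 to Day 3, none rose and the median log2 change was -0.91, against 26.3% of all 12208 genes called lower and a median over all genes of -0.31. Among them were Rbmx (-1.51), Hnrnpa1 (-1.30), Hnrnph1 (-1.15) and Nono (-1.15), the last a core paraspeckle protein that binds Neat1, and Sfpq, its partner, went from a mean of 189 to 99.4 FPKM (-0.92, adjusted p = 0.000740, limma; named after its value was seen). Their summed level was 2845 and 2921 FPKM at Day 0 and 1504 and 1428 at Day 3. Of 15 nuclear speckle protein genes, 9 fell and none rose, with a median of -0.59, led by the splicing factors Srsf3 (-1.25), Srsf2 (-1.19), Srsf7 (-1.17) and Srsf1 (-0.94). Under median ratio scaling, which moved the median of all genes to -0.04, 14 paraspeckle and 6 speckle genes were still called lower, with medians of -0.60 and -0.27. These counts are 70% and 40% of the lists, against 16.8% of all genes called lower under that scaling.

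**Figure D2:**
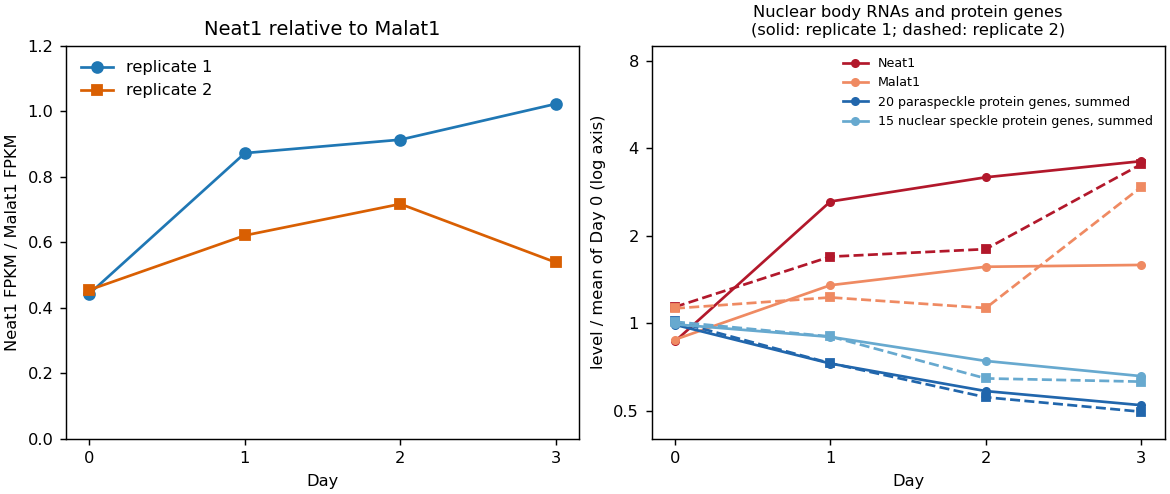
Left, Neat1 FPKM divided by Malat1 FPKM on Day 0 to Day 3 in replicate 1 (circles) and replicate 2 (squares); right, Neat1, Malat1 and the summed FPKM of 20 paraspeckle and 15 nuclear speckle protein genes, each divided by its mean on Day 0 (log axis; solid lines replicate 1, dashed lines replicate 2). Both RNAs lay above their Day 0 mean on Day 3 while both sums of protein genes lay below it, the paraspeckle sum at 1504 and 1428 FPKM against 2845 and 2921 on Day 0.

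Snhg1 and Gas5, which host snoRNAs, fell. Snhg1 stood at 52.0 and 46.2 FPKM at Day 0, 29.1 and 29.6 at Day 1, 27.6 and 26.8 at Day 2, and 17.3 and 28.5 at Day 3. Every later library was below both Day 0 libraries, replicate 1 of Day 3 lowest. Day 3 against Day 0 gave -1.11 ± 0.22 (SE) on the log2 scale, adjusted p = 0.00529 (limma), and it was called without any single library (adjusted p up to 0.0417). The first step gave -0.72 ± 0.22 with adjusted p = 0.0686, short of the threshold. With 9 and 13 fragments, the Day 3 values had counting intervals of 7.93 to 32.9 and 15.2 to 48.7 FPKM.

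Gas5, named for its rise in growth-arrested cells, stood at 25.8 and 26.8 FPKM at Day 0, 29.0 and 23.6 at Day 1, 18.97 and 15.9 at Day 2, and 16.2 and 18.8 at Day 3. The 4 libraries of Day 2 and Day 3 lay below the 4 of Day 0 and Day 1 with no overlap. Day 3 against Day 0 gave -0.57 ± 0.18 (SE) on the log2 scale, adjusted p = 0.0390 (limma). Since the median of all genes was -0.31, the change relative to it was -0.25, and under median ratio scaling Gas5 gave -0.26 with adjusted p = 0.290, which ends the call. From Day 1 to Day 2 it gave -0.57 ± 0.18 with adjusted p = 0.124, and the other single steps were -0.01 and 0.01.

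Snhg11, expressed mainly in neurons, was barely present: 1.89 and 0.695 FPKM at Day 0, 2.09 and 0.667 at Day 1, 0.420 and 0 at Day 2, and 0.313 and 0 at Day 3. These values are 17, 5, 15 and 5 fragments on the first 2 days and 3, 0, 2 and 0 on the last 2. The libraries of Day 0 and Day 1 all lay above those of Day 2 and Day 3, and replicate 1 lay above replicate 2 on each day. Day 3 against Day 0 gave -0.95 ± 0.46 (SE), with adjusted p = 0.134 (limma). For the 0 in replicate 2 of Day 3, a limit of 3 fragments is 0.534 FPKM, and the two-sided Poisson interval drawn in the plot of levels by day ends at 0.657 FPKM.

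Some of the other snoRNA hosts were called lower. Of 18 listed host genes without a protein product, 17 were found in the table, 7 of them under an older symbol, and all 17 passed the filter. Some passed it near the floor: over the 8 libraries together, Snhg9 and Snhg18 had 6 fragments each, Snhg15 had 13 and Snhg10 had 16. From Day 0 to Day 3, 7 of the 17 hosts fell, none rose and 10 were not called. Of the 17, 14 were below 0, and the median log2 change was -1.03. That is 41.2% of them called lower, against 26.3% of all genes, and none called higher, against 12%. Dancr fell by 2.43, Snhg4 by 2.00, Snhg6 by 1.62 and Snhg12 by 1.45 on the log2 scale, all on few fragments. In fragments (replicate 1, replicate 2), Dancr went from 8 and 11 on Day 0 to 0 and 1 on Day 3. Snhg4 went from 20 and 12 to 2 and 2, and Snhg12 from 21 and 18 to 6 and 4. Snhg6 went from 51 and 35 to 11 and 9. Snhg6, the most abundant of them, went from 81.7 and 70.1 FPKM at Day 0 to 24.8 and 23.1 at Day 3. Their summed level was 258 FPKM on average on Day 0 and 121 on Day 3. The count rested on single libraries. Without replicate 1 or replicate 2 of Day 0 it was 3 of 17 (17.6%, against 14.7% and 14.5% of all genes), and without replicate 2 of Day 3 it was 4 (23.5%, against 18.1%). Without replicate 1 of Day 3 it was 12 lower and 1 higher (70.6% lower, against 23.7%), and under median ratio scaling it was 4 (23.5%, against 16.8%).

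**Figure D3:**
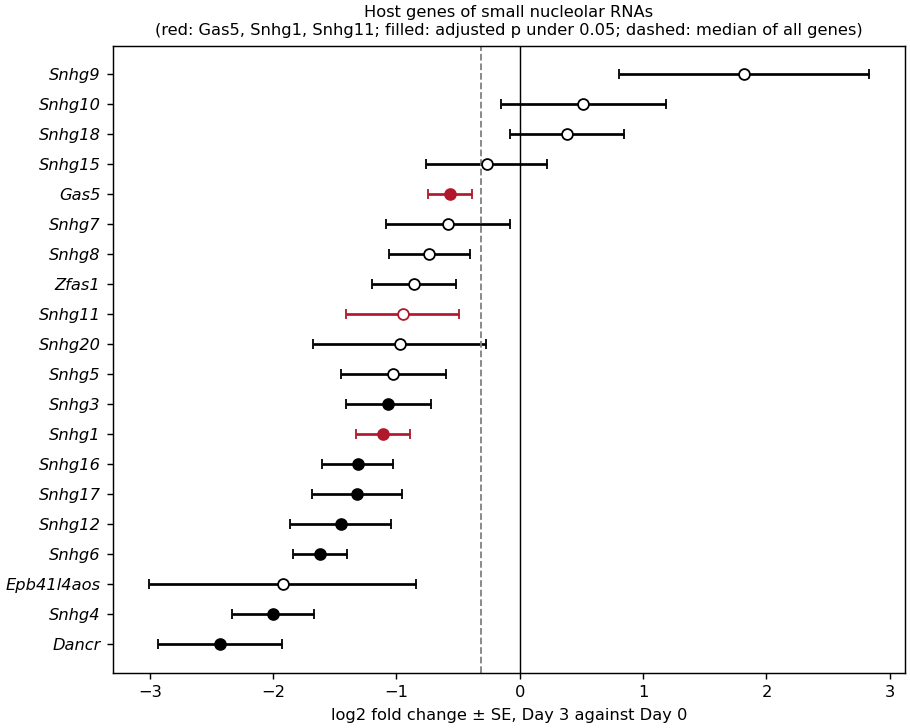
log2 fold change of Day 3 against Day 0 (horizontal axis, points with SE bars) for 20 host genes of snoRNAs, ordered by value; Gas5, Snhg1 and Snhg11 are in red, filled points passed adjusted p under 0.05, and the dashed line is the median of all genes tested (-0.31). Snhg1 lies amid the called hosts at -1.11, and Gas5 at -0.57 has the smallest change of the called genes.

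Genes for the protein partners of snoRNAs were called lower. Of all genes tested, 26.3% were called lower as deposited. That share was 20.8% after rescaling to equal sums, 16.8% under median ratio scaling and 17.9% after quantile normalization. All 8 genes for core proteins of snoRNA particles fell (median -1.33), among them Dkc1 (-1.57), the pseudouridine synthase, Nop58 (-1.56), Gar1 (-1.55) and Nhp2 (-1.33). Without replicate 1 of Day 0 the count was 5 of 8, and under each of the 3 other scalings it was 6. All 19 genes listed for a 5′ terminal oligopyrimidine tract, the TOP motif, fell as well (median -1.62), with Npm1, Rpl23a and Rpl3 at -1.98, -1.92 and -1.81. By background knowledge, messages of ribosomal proteins and translation factors carry this motif, and so does Gas5. Of 10 genes of nonsense-mediated decay, the pathway that degrades spliced Gas5, 3 fell, among them Upf3b (-0.98) and Upf3a (-0.93), and none rose, near the background of 26.3%, and under median ratio scaling 1 was lower and 1 higher.

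The starts of both called hosts are shown, beside those of Malat1 and Miat, because the TOP motif is read from the first transcribed bases. They are RefSeq starts of build GRCm38.p6, from 10 bases before the start to 20 after it, and capitals mark the unbroken pyrimidines from the first base where that is a C.
Gas5, first start, chr1:161034591-161034620, plus strand: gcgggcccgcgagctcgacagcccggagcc
Gas5, second start, chr1:161035156-161035185, plus strand: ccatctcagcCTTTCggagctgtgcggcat
Snhg1, chr19:8723477-8723506, plus strand: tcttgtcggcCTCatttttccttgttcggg
Malat1, chr19:5802653-5802682, minus strand: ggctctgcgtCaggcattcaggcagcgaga
Miat, chr5:112228929-112228958, minus strand: tcgcagtagcCCCTTTgtgaggcgcgggag
The second start of Gas5 had a run of 5 pyrimidines, while its first start does not begin with C. Snhg1 had a run of 3, Malat1 a single C and Miat, which is no snoRNA host, a run of 6. Among the other hosts called lower, Dancr, Snhg3, Snhg12, Snhg16 and Snhg17 had starts that do not begin with C. Among hosts that were not called, Snhg8 had a run of 6 and Snhg7 of 5, and the other starts found do not begin with C. Of all 32851 RefSeq starts, 2.51% begin with C and a run of at least 5, and 5.81% with C and a run of at least 3. Of 11 starts found for the listed TOP genes, 2 (18.2%) began with C, against 16.3% of all RefSeq starts. These starts therefore do not set TOP genes apart, and the runs above only describe the letters. Neat1 and Rmst had no entry among these starts.

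Meg3 and Miat had lower levels on Day 2 and Day 3 than on Day 0 and Day 1. Meg3 stood at 15.2 and 16.1 FPKM at Day 0, 18.5 and 16.1 at Day 1, 11.3 and 8.44 at Day 2, and 12.1 and 10.3 at Day 3. The 4 later libraries lay below the 4 earlier ones without overlap. The step from Day 1 to Day 2 was -0.76 ± 0.21 (SE) with adjusted p = 0.0873, and Day 3 against Day 0 gave -0.45 ± 0.21 with adjusted p = 0.123. Any difference among the days had adjusted p = 0.0529, and 0.0386 with the replicate number as a block (limma F-test).

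Miat, also called Gomafu, stood at 8.60 and 7.29 FPKM at Day 0, 13.1 and 9.19 at Day 1, 5.09 and 2.07 at Day 2, and 4.94 and 3.23 at Day 3. Replicate 1 was above replicate 2 on each of the 4 days, and the libraries of the later 2 days lay below those of the earlier 2. The step from Day 1 to Day 2 was -1.47 ± 0.38 (SE), at percentile 1.29 of all genes, with adjusted p = 0.0712, and 0.0215 with the replicate block (limma). Day 3 against Day 0 gave -0.83 ± 0.38 with adjusted p = 0.116, and 0.0406 with the replicate block. Any difference among the days had adjusted p = 0.0405 (limma F-test), a call kept in 2 of 8 other settings, with adjusted p up to 0.0863. Of the 8 tested neuron markers, 4 fell and Tubb3 rose (2.15, adjusted p = 0.0206, limma) from Day 0 to Day 3, and from Day 1 to Day 2 none was called. Their part in the levels of Miat and Snhg11 was not tested.
The RNA is known for repeats that bind the splicing factor SF1, and the closest pair is shown here from an annotated transcript with TACTAAC in capitals.
Miat, bases 5181 to 5210 of the transcript, chr5:112216778-112216807, minus strand: tgtgcTACTAACccggcccTACTAACtggt
That transcript holds 6 copies of TACTAAC on its own strand. Of 1642 annotated transcripts of at least 8000 nt, 3 (0.183%) hold at least as many, that transcript included.

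Most other genes of the Dlk1-Meg3 region were near 0. Of its 7 listed genes, 2 passed the filter, Meg3 and Rian, a second maternally expressed noncoding RNA that hosts snoRNAs and lies downstream. Rian stood at 12.9 and 11.2 FPKM at Day 0, 15.9 and 12.2 at Day 1, 4.59 and 3.15 at Day 2, and 2.82 and 3.21 at Day 3. It fell by 1.70 ± 0.27 (SE) on the log2 scale from Day 0 to Day 3, adjusted p = 0.00172 (limma), where Meg3 was not called. Whether both changes differ was not tested. Dlk1, the paternally expressed inhibitor of differentiation, was at 0.965 and 2.21 FPKM on Day 0, and at 0 in 2 of 2 libraries of Day 3. Mirg reached 0.804 and Rtl1 0.156 FPKM at most, Begain was at 0.338 and 0.385 FPKM at Day 3, and Dio3 was at 0 throughout.

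Rmst, a neural progenitor RNA that hosts Mir135a-2 and Mir1251, was listed at 0 in 7 of 8 libraries and at 0.306 FPKM in replicate 1 of Day 2. At the length of its transcript Rmst-207 (2698 nt) that is 1 fragment. Rmst was thus below 3 fragments everywhere, and no comparison was made.

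Across the 7 tested genes, 2 rose and 2 fell from Day 0 to Day 3, against 12% and 26.3% of all 12208 genes tested. Those shares of all genes came to 1460 higher and 3207 lower as deposited, and to 2137 and 2045 under median ratio scaling, so the call of Gas5 and the splits around it hang on the scale. On the first step 1 of 7 was called higher and none lower by limma (all genes, 5.04% and 7.56%), with Snhg1 alone lower at an unadjusted p under 0.05. None was called from Day 1 to Day 2 (2.16% higher and 1.73% lower), where Meg3, Miat and Gas5 passed an unadjusted p of 0.05. None was called from Day 2 to Day 3 (0.246% and 0.0491%), where Malat1 alone did, at 0.70 ± 0.29 (SE). Any difference among the days was called for 4 of 7, Neat1, Miat, Gas5 and Snhg1, against 35.2% of all genes. Of the whole class of 335 tested lncRNA genes, 33 rose (9.85%) and 51 fell (15.2%) from Day 0 to Day 3, with a median of -0.16.

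**Figure D4:**
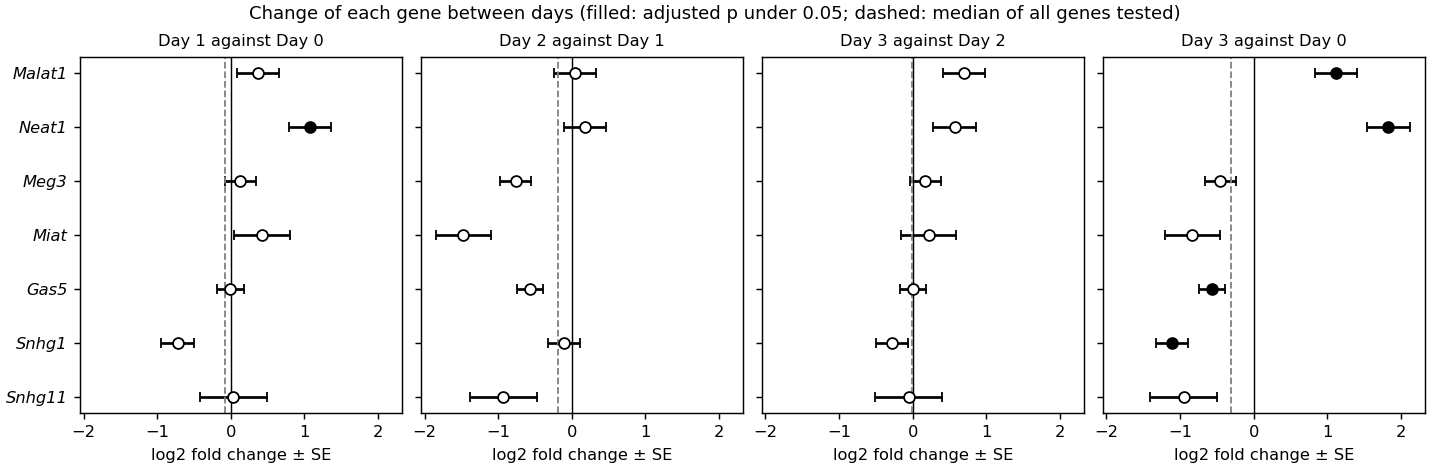
log2 fold change with SE (horizontal axes, log2(FPKM + 1)) of the 7 tested genes for the 3 single steps and for Day 3 against Day 0; filled points passed adjusted p under 0.05 over all genes, and dashed lines mark the median of all genes tested. Neat1 is filled in the first and last panels, and the drop of Miat from Day 1 to Day 2 (-1.47) is the largest step that was not called.

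The replicate number was tested too, because astrocyte genes differed by it: 6 of 9 tested astrocyte genes were higher in replicate 2 (median log2 difference of 1.27). None of the 7 long noncoding RNAs was called between replicates (limma; all genes, 0.68% higher and 0.369% lower in replicate 2), while Miat and Snhg11 passed an unadjusted p of 0.05. The largest differences were -0.64 ± 0.24 (SE) for Snhg11, adjusted p = 0.350, and -0.54 ± 0.20 for Miat, adjusted p = 0.323 (limma). Malat1 and Neat1 differed by 0.16 and -0.27. In replicate 2 of Day 3, where Malat1 was highest, the summed astrocyte level was also highest at 966 FPKM, and the part of those cells in its value was not tested. Xist, the noncoding RNA of the inactive X chromosome, was at 3.89 to 7.23 FPKM in the replicate 1 libraries and at 40.4 to 81.0 in the replicate 2 libraries (named after its values were seen).

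The genes whose profile over the 8 libraries was most like each member are given as a description by Pearson's r of log2(FPKM + 1), where all points share the same libraries. For Neat1 they were Bnip3l (0.984), a mitophagy receptor, Exoc6b (0.981) and Stx16 (0.967), both of membrane trafficking. For Malat1 they were Cyb5d2 (0.956), Zfp281 (0.95) and Ocel1 (0.948). Meg3 and Miat, whose r with each other was 0.980, shared Ntm and Cpsf6 among their nearest 3, beside Il17d (0.992) for Meg3 and Pygo2 (0.988) for Miat. Gas5 was nearest to Mcf2l (0.988), Ppp1r14c and Ubqln4, Snhg1 to Tdp1, Ift27 (0.973) and 5830418K08Rik, and Snhg11 to Kti12 (0.987), Hapln4 and Ptcd1. Among the members themselves, Malat1 and Neat1 had r of 0.812, and Neat1 and Snhg1 of -0.858.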

How the data were processed

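Poly(A)-selected, stranded RNA libraries from 8 samples were sequenced by the authors, who per the labels used build mm10 and deposited a single table of FPKM values, 1 column a library. Reads were processed in OmicSoft ArrayStudio by the study's methods, and the strand setting of the counting is not given in the sources used here. Depth was read back from the deposited FPKM: values of a gene are multiples of the worth of 1 fragment, and 95 genes with 1 annotated transcript gave the scale (48 of them within 3% of the mode).

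The genes and lists were chosen with earlier results of these data known. Groups and replicate numbers came from the sample titles. The 12208 genes reaching 1 FPKM in 2 or more libraries were fitted as log2(FPKM + 1) by day with limma 3.58.1 (R 4.3.3, eBayes with a trend, two-sided), p-values were adjusted by Benjamini-Hochberg over all of them, and a gene was called at an adjusted p under 0.05. The study's methods call the 2 replicates of a day independent experiments, which were not traced to animals, so p-values measure the spread between these libraries. A fold on this scale understates changes of low genes. The main fit had no replicate block, and calls given without mention of a block come from it. Replicate differences correlated between all 6 pairs of days (Pearson's r 0.164 to 0.285). The fit was therefore repeated with the numbers taken as pairs in a replicate block. Other alternatives were the pseudocount, the filter, 3 scalings, the trend, fits of only the compared days, and leaving out each library. From each list, up to 4 called genes a direction with the largest change were named, beside the Dlk1-Meg3 genes, 6 markers and the 3 most alike genes of each member. Some genes that this rule names are not reported here. Listed symbols missing from the table were looked up among RefSeq synonyms. Scripts were tested on simulated data. The limits that 0 allows are 3 fragments. Python 3.11.15 with pandas 2.3.3 and matplotlib 3.10.9 was used for counts and plots.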

Additional observations from a re-analysis of the deposited data

How the results depend on the processing

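No called value changed sign. For Day 3 against Day 0, 2 members were called higher, but 1 in the fit of only the days compared and 1 to 2 with a library left out, Malat1 being lost in each case. The 2 called lower became 1 after quantile normalization, median ratio scaling, rescaling to equal sums, eBayes without a trend and the fit of only the days compared, and 1 to 2 with a library left out (Gas5 lost, adjusted p up to 0.290), and 3 with the replicate block, where Miat was added. Neat1 and Snhg1 kept their calls there under all alternatives, at adjusted p up to 0.0182 and 0.0417. For Day 1 against Day 0, the 1 called higher became 0 with a pseudocount of 0.1, no filter, eBayes without a trend and the fit of only the days compared, and 0 to 1 with a library left out. The 0 called lower became 1 (Snhg1) in the fit of only the days compared, and 0 to 1 with a library left out. For Day 2 against Day 1, the 0 called lower became 1 (Miat) with the replicate block. Any difference among the days, called for 4, was called for 2 with no filter and under median ratio scaling, 1 without a trend, and 0 to 4 with a library left out. With a library left out, Gas5 lost that call in every fit. Of 8 settings other than a left-out library, Neat1 kept that call in 8, Snhg1 in 6, Gas5 in 3 and Miat in 2. Malat1, not called, stayed so in 5 of them, and its lowest adjusted p was 0.0308 (limma F-test). The replicate block changed no other call besides Meg3 in the last test. Depth limits Snhg1 (9 to 38 fragments a library), Snhg11 (0 to 17) and Rmst (0 to 1) most. Rmst could not be tested, and Snhg11 fell below the filter of 10 FPKM and in 2 fits with a library left out. The cause of these losses was not tested.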

Other observations

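Some other long noncoding RNAs moved further than the 8 described. H19, an imprinted RNA of growing tissue, fell by 3.06 on the log2 scale from Day 0 to Day 3, from 447 and 691 to 113 and 37.9 FPKM, with 560 and 1039 on Day 1 (adjusted p = 0.00260, limma). Pantr1, which neighbours a POU factor gene and was found under its older symbol 2610017I09Rik, fell by 2.72. Sox2ot, in whose span the progenitor gene Sox2 lies, rose from 38.2 and 30.5 to 168 and 191 FPKM, a log2 change of 2.36 ± 0.17 (SE), and Firre by 1.29. Tug1 stood at 54.4 to 63.5 FPKM in all 8 libraries. Tug1 and 9630013A20Rik were named after their values were seen. Of 33 listed genes of this kind, 29 were in the table and 20 passed the filter, of which 2 rose (10%, against 12% of all genes) and 8 fell (40%, against 26.3%). Among all genes typed lncRNA, 9630013A20Rik rose by 4.51 on the log2 scale, from 8.88 and 8.72 FPKM on Day 0 to 257 and 192 on Day 3.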
